A study of Mus musculus with 10 samples.

Results

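The Sox factors of adult neural stem cells were followed through mitogen withdrawal as 9 coding genes (Sox2, Sox3, Sox4, Sox5, Sox6, Sox8, Sox9, Sox11 and Sox21) and Sox2ot, the noncoding gene that hosts Sox2. These 10 genes were taken by symbol from the 48795 genes of the count table, and all 10 passed the filter on low counts, which left 12859 genes to test. The RNA came from neural stem cell (NSC) cultures of the subependymal zone (SEZ) of 10-week-old mice, either WT or p27KO, the second lacking the cell cycle inhibitor p27 encoded by Cdkn1b. Proliferating cells (PRO) were neurospheres labelled 3 DIV (days in vitro), grown with 20 ng/ml EGF and 10 ng/ml FGF. The study's sequencing methods also give 3 DIV, while its results section gives an older age, and the label is used here. Differentiating cells (DIFF, 2 + 1 DIV) were seeded on Matrigel for 2 days with FGF and then kept for 24 h in medium without mitogens and with 2% fetal bovine serum. The stages therefore differ in attachment and serum as well as in mitogens, and these cannot be told apart. WT had 3 libraries per stage and p27KO 2, with between 19190068 and 25291674 counts in a library. Levels are given as CPM, the counts of a gene in every 1000000 counts of its library.

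SOX proteins bind DNA through a high-mobility-group domain related to that of SRY, usually beside a partner factor, and are sorted into subgroups by sequence. The SOXB1 proteins SOX1, SOX2 and SOX3 hold neural progenitors in an undifferentiated state, while the SOXB2 protein SOX21 acts against them as a repressor. SOXC proteins (SOX4, SOX11 and SOX12) drive genes of newborn neurons, SOXD proteins (SOX5, SOX6 and SOX13) have no activation domain of their own, and SOXE proteins (SOX8, SOX9 and SOX10) act in the glial lineages.

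Counts of Cdkn1b itself (ENSMUSG00000003031) were not lost in the libraries labelled p27KO. They held 114 and 90.7 CPM in PRO and 140.2 and 137 CPM in DIFF, against 103, 105 and 113 CPM in WT PRO and 207, 205 and 209 CPM in WT DIFF. The genotypes overlapped in PRO and were apart in DIFF, where the libraries labelled p27KO were lower by a log2 fold change of -0.56 (SE 0.09). This difference had an adjusted p = 0.012 after Benjamini-Hochberg adjustment in edgeR's quasi-likelihood test, and the log2 fold change was -0.59 and -0.54 without replicate 1 or 2 of p27KO DIFF. These fits leave 1 library in that group, so that the spread comes from the other groups, and their adjusted p was 0.11 and 0.15 in the same test. Counts per gene do not show which part of the gene was read, and the free-text description of these libraries names WT cells although their titles and genotype say p27KO. Each genotype difference given here therefore rests on the sample labels. Genotype also coincided with sex. Xist was between 2260 and 3590 CPM in the libraries labelled p27KO and at most 2.57 CPM in WT, and 4 Y-linked genes summed to between 189 and 533 CPM in WT and to at most 0.585 CPM in the libraries labelled p27KO.

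Of the 10 genes, 7 rose and 2 fell from PRO to DIFF in WT cells, and the same numbers held in the libraries labelled p27KO. Over all genes tested, 33.5% rose and 33.9% fell in WT, and 27.5% rose and 30.2% fell in the libraries labelled p27KO. The genes that rose in both genotypes were Sox2, Sox2ot, Sox4, Sox5, Sox6, Sox8 and Sox21, those that fell in both were Sox3 and Sox11, and Sox9 passed the test in neither. The stages did not overlap for 9 of the 10 genes in either genotype, Sox9 being the exception, against 71.9% of the genes tested in WT and 79.8% in the libraries labelled p27KO. The median log2 fold change of the 10 genes was 0.83 in WT and 0.75 in the libraries labelled p27KO, beside medians of -0.0019 and -0.029 over all genes tested. In bulk RNA, a change in the number of cells that express a gene and a change in its RNA per cell cannot be told apart.

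**Figure D1:**
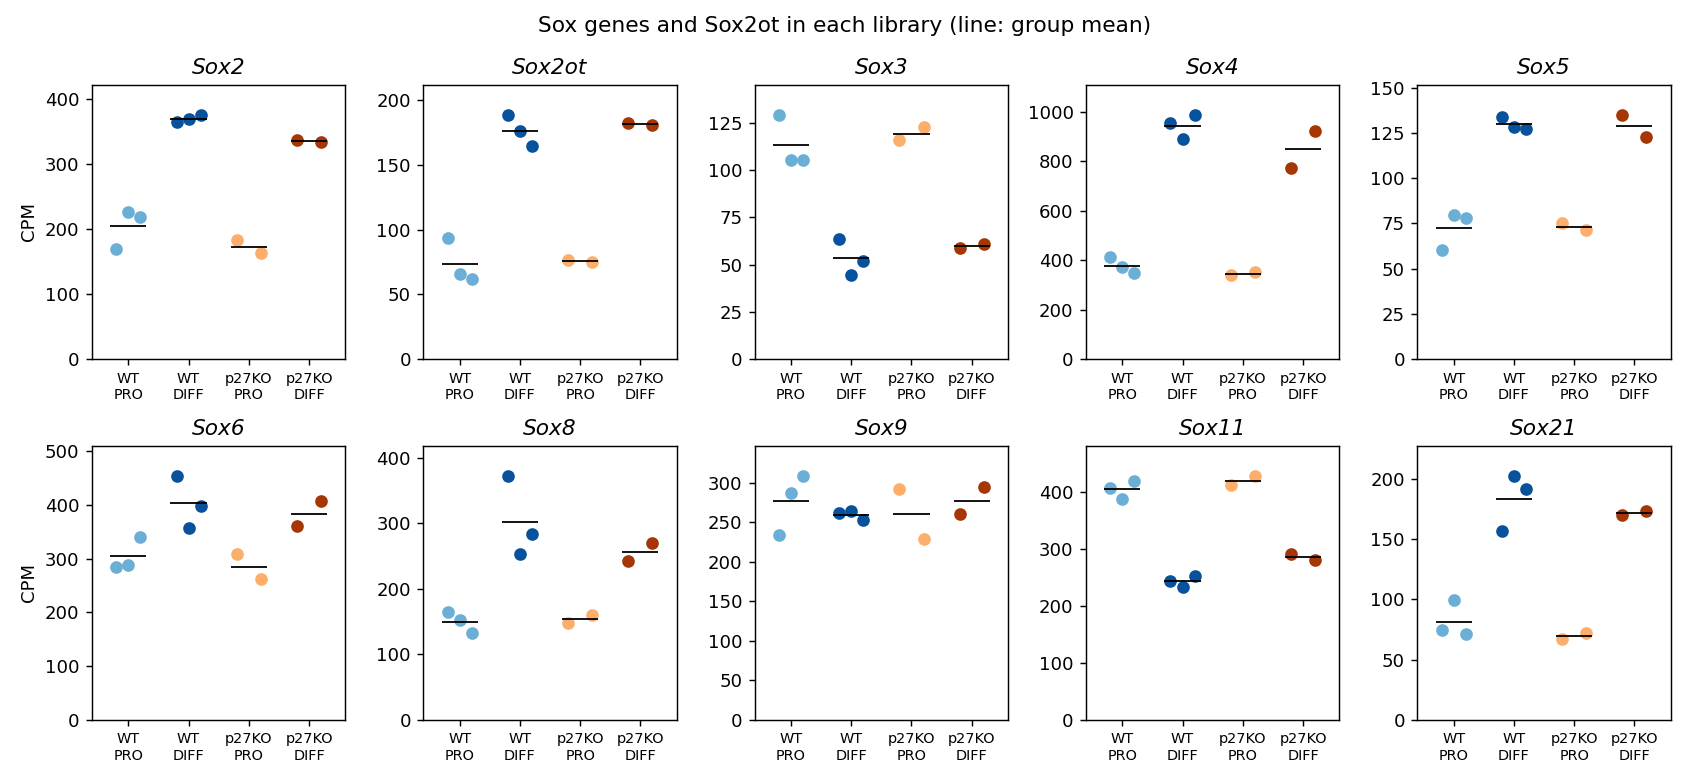
Each panel plots 1 gene, with CPM on the vertical axis from 0 and 1 point per library for the 4 groups (the p27KO groups are named by their labels); the line is the group mean. The DIFF libraries lie above the PRO libraries in 7 panels and below them for Sox3 and Sox11, while the stages overlap for Sox9.

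Sox2 (ENSMUSG00000074637), the SOXB1 factor most used to define neural stem cells, was at 169.6, 226 and 219 CPM in the WT PRO libraries and at 365, 369 and 375 CPM in WT DIFF. In the libraries labelled p27KO it was at 183 and 163 CPM in PRO and at 337 and 334 CPM in DIFF. Every DIFF library was above every PRO library, and the WT DIFF libraries differed from each other by less than the PRO ones. The mean rose from 205 ± 30.8 to 369.8 ± 5.10 CPM in WT (SD, n = 3) and from 173 ± 14.6 to 336 ± 2.27 CPM in those labelled p27KO (SD, n = 2). The log2 fold change was 0.84 in WT (SE 0.10) and 0.93 in the libraries labelled p27KO (SE 0.13). After Benjamini-Hochberg adjustment in edgeR's quasi-likelihood test these had an adjusted p = 6.6e-05 and an adjusted p = 0.00021.

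Sox3 (ENSMUSG00000045179), a SOXB1 gene of a single exon on the X chromosome, moved the other way. Its level was 129, 105 and 106 CPM in WT PRO and 63.5, 44.4 and 51.7 CPM in WT DIFF. In the libraries labelled p27KO it was 116 and 123 CPM in PRO and 58.8 and 61.0 CPM in DIFF. The stages were apart in both genotypes, and the genotypes overlapped at both stages although they differ in sex. The fall was -1.10 on the log2 scale in WT (SE 0.13) and -1.02 in the libraries labelled p27KO (SE 0.16), with an adjusted p = 4.1e-05 and 0.00041 after Benjamini-Hochberg adjustment in edgeR's quasi-likelihood test. The ratio of Sox2 to Sox3 counts within a library, which no library scaling can change, was between 1.32 and 2.15 in the 5 PRO libraries and between 5.48 and 8.31 in the 5 DIFF libraries. Sox1, the remaining SOXB1 gene, was at a mean of 32.7 ± 8.01 CPM in WT PRO and 74.2 ± 16.8 CPM in WT DIFF (SD, n = 3), and its log2 fold change was 1.17 (SE 0.19) in WT and 0.95 (SE 0.24) in the libraries labelled p27KO, past the test in both.

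Sox2ot (ENSMUSG00000105265) spans positions 34104270 to 34682619 of chromosome 3 on the plus strand in the GRCm38 annotation. The single exon of Sox2, at positions 34650405 to 34652461 on the same strand, lies in an intron of Sox2ot and shares no exon base with it. Sox2ot was at 93.3, 65.3 and 61.7 CPM in WT PRO and at 188, 176 and 165 CPM in WT DIFF, and at 76.3, 74.9, 182 and 181 CPM in the PRO and DIFF libraries labelled p27KO. It rose with its guest gene, by 1.25 in WT (SE 0.14) and 1.24 in the libraries labelled p27KO (SE 0.17) on the log2 scale. The ratio of Sox2 to Sox2ot counts overlapped between the stages in WT, with 1.82, 3.46 and 3.55 in PRO and 1.94, 2.10 and 2.28 in DIFF. In the libraries labelled p27KO it did not overlap, with 2.40 and 2.17 in PRO and 1.85 in both DIFF libraries. With 2 libraries per stage such a separation is easily reached, and a difference between the genotypes in this ratio was not tested. Of the 11594 exon bases of Sox2ot, 672 are shared with small genes, so that some of its reads may belong to these.

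Sox21 (ENSMUSG00000061517), the SOXB2 gene, was at 74.5, 99.2 and 71.0 CPM in WT PRO and at 157, 202 and 192 CPM in WT DIFF. The libraries labelled p27KO held 67.0 and 72.0 CPM in PRO and 169.9 and 174 CPM in DIFF. Sox21 thus rose together with Sox2, the factor it acts against. Its log2 fold change was 1.16 (SE 0.14) in WT and 1.28 (SE 0.17) in the libraries labelled p27KO, with an adjusted p = 5.1e-05 and 0.00018 after Benjamini-Hochberg adjustment in edgeR's quasi-likelihood test. An antisense gene, Gm4675, covers 713 of its 3799 exon bases, and whether the counting used strand is not given in the sources used here.

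The SOXC genes went in opposite directions. Sox4 (ENSMUSG00000076431) was at 414, 371 and 349 CPM in WT PRO and at 953, 888 and 985 CPM in WT DIFF, and in the libraries labelled p27KO at 339 and 350.3 CPM in PRO and at 772 and 924 CPM in DIFF. Sox11 (ENSMUSG00000063632) was at 408, 388 and 419 CPM in WT PRO and at 244, 233 and 253 CPM in WT DIFF. In the libraries labelled p27KO it was at 412 and 428 CPM in PRO and at 292 and 280.3 CPM in DIFF. For both genes the stages were far apart beside the spread within each group. Sox4 rose by 1.31 (SE 0.09) in WT and 1.27 (SE 0.12) in the libraries labelled p27KO on the log2 scale, with an adjusted p = 1.9e-06 and 1.8e-05 after Benjamini-Hochberg adjustment in edgeR's quasi-likelihood test. Sox11 changed by -0.75 (SE 0.07) and -0.58 (SE 0.09), with an adjusted p = 9.2e-06 and 0.0003 after Benjamini-Hochberg adjustment in edgeR's quasi-likelihood test. The ratio of Sox4 to Sox11 counts was between 0.818 and 1.01 in the PRO libraries, 3.82, 3.90 and 3.90 in WT DIFF, and 2.65 and 3.30 in DIFF labelled p27KO. Sox12, whose product shares their DNA-binding domain type, was at a mean of 61.6 ± 6.21 CPM in WT PRO and 58.7 ± 2.03 CPM in WT DIFF (SD, n = 3) and did not pass the test in either genotype. An antisense gene, Gm26735, covers 2616 of the 4795 exon bases of Sox4 so that a part of the Sox4 counts may come from it. Sox11 shares no exon base with another gene.

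Among the SOXD genes, Sox5 and Sox6 rose and Sox13 did not pass the test. Sox5 (ENSMUSG00000041540) was between 60.2 and 79.8 CPM in the 5 PRO libraries and between 123 and 135 CPM in the 5 DIFF libraries, a log2 fold change of 0.83 (SE 0.10) in WT and 0.79 (SE 0.13) in the libraries labelled p27KO. Of its 14376 exon bases, 1330 are shared with the antisense gene Sox5os1. Sox6 (ENSMUSG00000051910) had the smallest of the called changes. It was at 285, 289 and 339.6 CPM in WT PRO and at 454, 358 and 398 CPM in WT DIFF, and at 309 and 262 against 361 and 408 CPM in the libraries labelled p27KO. Its log2 fold change was 0.39 (SE 0.11) in WT and 0.40 (SE 0.13) in the libraries labelled p27KO, with an adjusted p = 0.0093 and 0.026 after Benjamini-Hochberg adjustment in edgeR's quasi-likelihood test. In the libraries labelled p27KO the call was lost without replicate 2 of DIFF (log2 fold change 0.32, adjusted p = 0.15) and without replicate 2 of PRO (0.31, adjusted p = 0.14), in the same edgeR test with Benjamini-Hochberg adjustment, each fit leaving 1 library in that group. Sox13 was at a mean of 15.4 ± 2.02 CPM in WT PRO and 15.4 ± 1.77 CPM in WT DIFF (SD, n = 3).

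The SOXE genes of the glial lineages differed from each other as well. Sox8 (ENSMUSG00000024176) was at 165, 152 and 132 CPM in WT PRO and at 372, 252 and 284 CPM in WT DIFF, where replicate 1 stood above the others. In the libraries labelled p27KO it was at 148 and 160.4 CPM in PRO and at 242 and 269 CPM in DIFF. Its log2 fold change was 1.00 (SE 0.14) in WT and 0.70 (SE 0.17) in the libraries labelled p27KO, past the test in both. The antisense gene 2810468N07Rik covers 329 of its 3118 exon bases. Sox9 (ENSMUSG00000000567), which is needed for the glial and stem cell state, was at 234, 287 and 309 CPM in WT PRO and at 262, 264 and 253 CPM in WT DIFF. The libraries labelled p27KO held 292 and 229 CPM in PRO and 260.1 and 295 CPM in DIFF. The DIFF levels of Sox9 lay within the range of the PRO levels in WT, and its log2 fold change was -0.10 (95% interval -0.36 to 0.16) in WT and 0.07 (-0.25 to 0.39) in the libraries labelled p27KO. These had an adjusted p = 0.47 and 0.70 after Benjamini-Hochberg adjustment in edgeR's quasi-likelihood test.

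**Figure D2:**
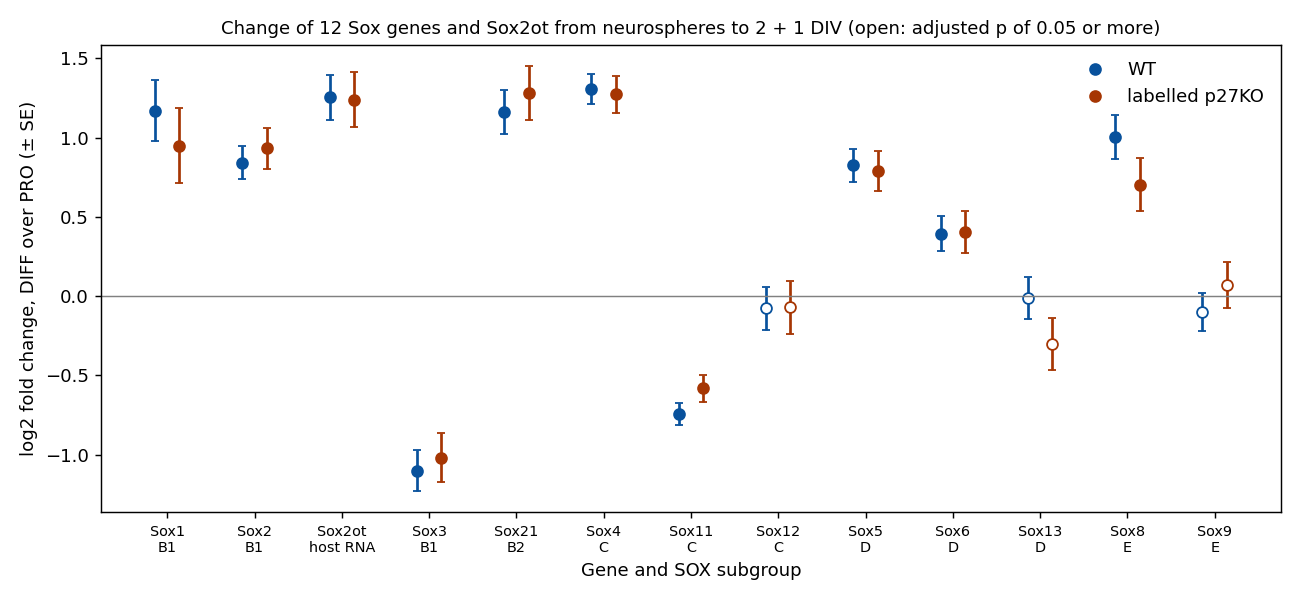
Log2 fold change from PRO to DIFF (vertical axis, ± SE) for 12 Sox genes and Sox2ot, in WT cells (blue) and in the libraries labelled p27KO (brown), ordered by SOX subgroup; open circles did not pass the test. Sox3 and Sox11 lie below 0 in both genotypes, and Sox9, Sox12 and Sox13 are open in both.

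Levels of different genes were compared as CPM per kb of exon. In WT PRO the order of the 10 genes was Sox2 (99.7 ± 15.0 CPM per kb), Sox4 (78.9 ± 6.86), Sox9 (66.9 ± 9.25), Sox3 (54.8 ± 6.58), Sox11 (48.7 ± 1.95), Sox8 (48.0 ± 5.32), Sox21 (21.5 ± 4.05), Sox6 (20.5 ± 2.05), Sox2ot (6.33 ± 1.49) and Sox5 (5.06 ± 0.759), each with its SD over 3 libraries. With the longest transcript as length in place of all exon bases, Sox6 (35.1 CPM per kb) came above Sox21, and Sox8 (49.9) above Sox11, while Sox2ot was at 21.1 and Sox5 at 10.0 CPM per kb. With all exon bases, only Sox3 and Sox11, Sox8 and Sox21, and Sox6 and Sox2ot were neighbours whose libraries did not overlap. In WT DIFF Sox4 came first, at 196 ± 10.3 CPM per kb, above Sox2 at 179.8 ± 2.48 and Sox8 at 97.1 ± 19.9 CPM per kb (SD, n = 3). Sox9 was at 62.8 ± 1.39, Sox21 at 48.4 ± 6.28 and Sox11 at 29.3 ± 1.20 CPM per kb. Sox6 (27.2 ± 3.25) and Sox3 (25.8 ± 4.67) followed, ahead of Sox2ot (15.2 ± 1.01) and Sox5 (9.04 ± 0.234), and the libraries of Sox11, Sox6 and Sox3 overlapped between neighbours. With the longest transcript, Sox2ot (50.55 CPM per kb) and Sox6 (46.5) were close to Sox21 in WT DIFF, and Sox5 was at 17.9 CPM per kb. With these levels, Sox2 stood above 96.9% of the genes tested in WT PRO and 99.0% in WT DIFF, and Sox3 above 94.0% and 86.7%.

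Summed over the 19 coding Sox genes of the table, the level was 459, 480 and 465 CPM per kb in WT PRO and 738, 676 and 711 CPM per kb in WT DIFF. It was 449 and 439 CPM per kb in PRO and 636 and 688 CPM per kb in DIFF in the libraries labelled p27KO. SOXB1 genes held 34.4 ± 1.12% of it in WT PRO and 31.2 ± 0.458% in WT DIFF, and SOXC genes 30.2 ± 2.17% and 33.7 ± 1.12% (SD, n = 3). Sox21, the SOXB2 gene, held 4.57 ± 0.758% in WT PRO and 6.86 ± 1.16% in WT DIFF (SD, n = 3), and its libraries did not overlap between the stages in either genotype. Within SOXB1, the share of Sox3 in the whole sum was 11.7 ± 1.63% in WT PRO and 3.62 ± 0.502% in WT DIFF. Within SOXC, Sox11 held 10.4 ± 0.617% in WT PRO and 4.13 ± 0.145% in WT DIFF, while Sox4 held 16.9 ± 1.70% and 27.7 ± 1.02% (SD, n = 3). Shares of a sum are bound to each other, so that a rise of Sox4 alone lowers the share of every other gene.

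**Figure D3:**
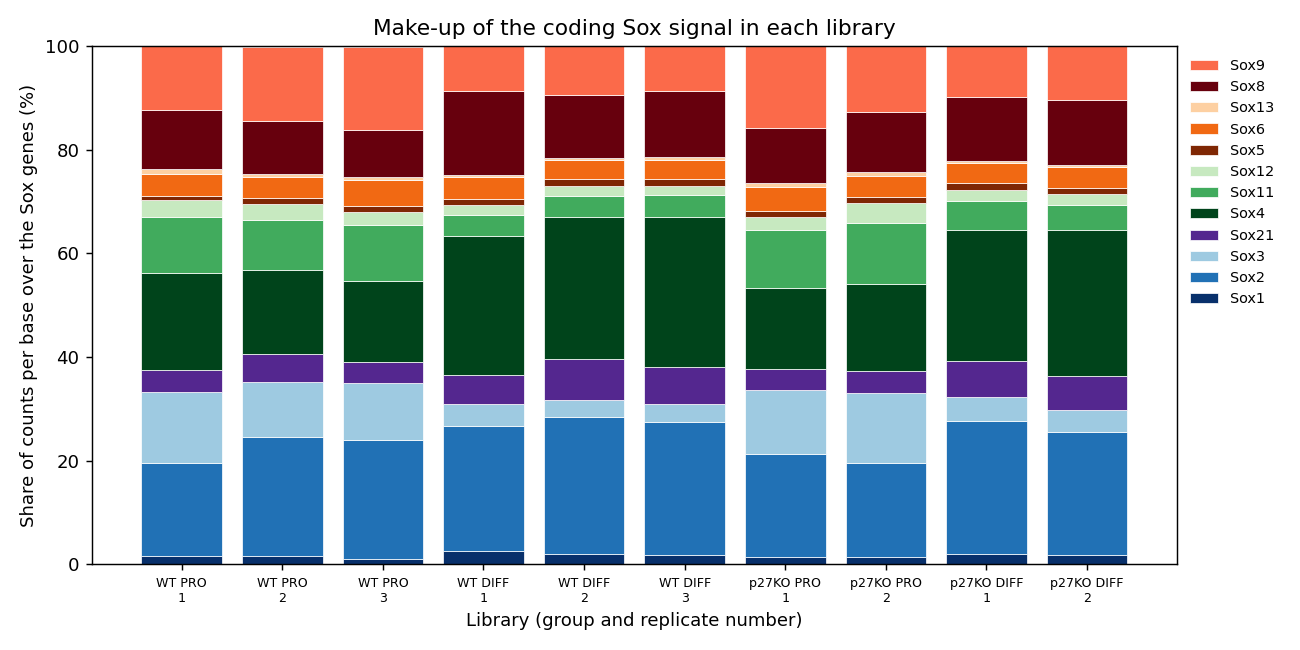
Share of each coding Sox gene in the summed counts per base of the Sox genes (vertical axis, %), with 1 bar per library and genes stacked by SOX subgroup. The bands of Sox3 and Sox11 are narrower and that of Sox4 wider in each DIFF bar than in each PRO bar.

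The genotypes were compared at each stage to ask whether the loss of p27 changes Sox expression. In DIFF, 262 genes (2.04% of those tested) differed between the libraries labelled p27KO and WT, and 0 of the 10 Sox members were among them. The 262 were 246 genes higher and 16 lower with the p27KO label, against 94 and 5 without replicate 1 of p27KO DIFF, 121 and 5 without its replicate 2, and 36 and 3 with only the compared groups fitted. In PRO, 2 genes (0.0156%) differed, and again 0 of the 10. The change from PRO to DIFF itself differed between the genotypes for 50 genes (0.389%), or 29 with a replicate block within genotype, and for 0 of the 10. All 50 were differences towards higher values with the p27KO label, a count that ran from 0 to 88 with a library left out. In edgeR's test, 1 of the 10 had an unadjusted p under 0.05 in DIFF (Sox11), 0 in PRO and 0 for the interaction, beside 14.8%, 4.69% and 4.31% of all genes tested, so that these counts are near the background. DESeq2 called 1 of the 10 in DIFF, also Sox11, where it called 4.91% of all genes, and 0 in PRO and for the interaction. For Sox11 in DIFF the libraries labelled p27KO, at 292 and 280.3 CPM, were above all 3 WT libraries, whose highest was 253 CPM. The log2 difference was 0.25 (SE 0.08, 95% interval 0.08 to 0.42), with an adjusted p = 0.17 in edgeR's quasi-likelihood test after Benjamini-Hochberg adjustment and an adjusted p = 0.017 in DESeq2 with the same adjustment.

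For Sox2 the libraries labelled p27KO lay below the 3 WT libraries in DIFF, where the lowest WT library held 365 CPM, and overlapped with them in PRO. The log2 difference from WT was -0.13 in DIFF (95% interval -0.39 to 0.14) and -0.22 in PRO (-0.48 to 0.05), with an adjusted p = 0.66 and 1 in edgeR's quasi-likelihood test after Benjamini-Hochberg adjustment. The interval in DIFF allows a Sox2 level in the libraries labelled p27KO between 0.765 and 1.10 times that of WT. The Sox2 stage change differed between the genotypes by 0.09 on the log2 scale (95% interval -0.28 to 0.46). Over the 10 genes the log2 difference between genotypes ranged from -0.23 (Sox8) to 0.25 (Sox11) in DIFF and from -0.22 (Sox2) to 0.10 (Sox3) in PRO, and the interaction from -0.30 (Sox8) to 0.17 (Sox9). For comparison, the proliferation marker Mki67 was at 118, 67.6 and 107 CPM in WT DIFF and at 360.4 and 313 CPM in DIFF labelled p27KO, a log2 difference of 1.81 (SE 0.19).

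Of the other 10 Sox genes of the table, 3 passed the filter (Sox1, Sox12 and Sox13) and 1 of these, Sox1, rose. The remaining 7 were close to absent. Sox14 and Sox17 had 0 counts in every library, and the highest count in a library was 10 for Sox10, 9 for Sox30, 7 for Sox7, 4 for Sox15 and 2 for Sox18. Sox10, the remaining SOXE gene, thus stayed near 0 while its relatives Sox8 and Sox9 were abundant.

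SOX proteins act with partner factors, and of 18 partner genes 10 rose and 3 fell in WT, and 9 rose and 3 fell in the libraries labelled p27KO. Over all genes tested these shares were 33.5% and 33.9% in WT and 27.5% and 30.2% in the libraries labelled p27KO. The median log2 fold change of the partner genes in WT was 0.31, beside -0.0019 over all genes tested. The largest rises were those of Tcf7l1 (1.75, SE 0.12), a Wnt pathway repressor, Nfix (1.54, SE 0.13), a nuclear factor I gene of quiescent stem cells, and Pou3f2 (1.53, SE 0.11), which encodes the POU factor BRN2 that binds beside SOX2. The falls were those of the POU gene Pou3f1 (-2.99, SE 0.31), Tead2 (-0.90, SE 0.12) and Zeb1 (-0.61, SE 0.09).

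Of 20 progenitor genes linked to SOX2, 8 rose and 8 fell in WT, and 9 rose and 8 fell in the libraries labelled p27KO, with a median of 0.20 in WT. The WT counts are near the shares of all genes tested given above. The Notch target Hes5 (2.88, SE 0.29), the RNA-binding protein gene Msi1 (2.46, SE 0.20) and Prom1 (1.49, SE 0.19) rose most on the log2 scale. The cyclin gene Ccnd1 (-5.89, SE 0.18), the intermediate filament gene Nes (-3.16, SE 0.18) and the CDK inhibitor gene Cdkn1a (-2.30, SE 0.44) fell most. The orphan receptor gene Nr2e1 rose by 1.09 (SE 0.15), while the oligodendroglial factor gene Olig2 changed by -1.53 (SE 0.11). Egfr, at 0.03 (95% interval -0.34 to 0.40), did not pass the test.

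Of 15 neuronal genes linked to SOX4 and SOX11, 10 could be tested, and 3 rose and 1 fell in each genotype, although Sp9 and Stmn1 passed the test in WT only and Insm1 and Dlx1 in the libraries labelled p27KO only, the last pair being named after its values were seen. The 4 of 10 called lie below the 67.4% of all genes tested that were called in either direction in WT and the 57.7% in the libraries labelled p27KO. None of Sp9, Stmn1, Insm1 and Dlx1 passed the interaction test of a difference between the genotypes. In WT, Dcx rose by 4.61 (SE 0.90) from at most 3.18 CPM in the PRO libraries, and Tubb3 by 1.29 (SE 0.37). Sp9 rose by 0.59 (SE 0.22), with an adjusted p = 0.041 in edgeR's quasi-likelihood test after Benjamini-Hochberg adjustment, and was called in 7 of 18 alternatives. The microtubule regulator gene Stmn1 changed by -0.91 (SE 0.19). Neurod1 was not tested and had at most 25 counts in a library. Of 23 glial genes linked to SOX9, SOX8 and SOX10, 18 could be tested, and 9 rose and 5 fell in WT and 8 rose and 4 fell in the libraries labelled p27KO, beside 33.5% and 33.9% of all genes tested in WT and 27.5% and 30.2% in the libraries labelled p27KO. Gfap (7.51, SE 0.40) and Aqp4 (6.44, SE 0.43) rose most, and Cspg4 (-1.75, SE 0.32), Olig2 and Cd44 (-1.34, SE 0.22) fell most. The myelin genes Mbp, Mag, Mog and Cldn11, and Enpp6, were below the filter. In none of these 4 lists did a gene pass the test in the interaction or in either genotype comparison.

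Summed levels of markers of several cell types were also apart between the stages. The most abundant gene of a list is the one with the highest mean over the 10 libraries. The summed level of 6 astrocyte markers was between 764 and 1100 CPM in the PRO libraries and between 2270 and 2710 CPM in the DIFF libraries, with Aldoc the most abundant. The 7 neuroblast markers summed to between 7.90 and 13.8 CPM in PRO and between 27.1 and 76.5 CPM in DIFF, with Dcx the most abundant and Sp8 at 0. The 5 ependymal markers summed to between 14.7 and 20.2 CPM in PRO and between 86.2 and 104 CPM in DIFF, nearly all of it Foxj1 (a mean of 90.9 of 92.8 CPM in WT DIFF), with Rsph1, the next, at most at 1.74 CPM. The 7 mural and fibroblast markers, led by Acta2, summed to between 1.61 and 3.44 CPM and between 30.2 and 99.2 CPM, and the 5 endothelial markers, with Cdh5 and Cldn5 at 0, to between 2.27 and 3.00 CPM and between 4.67 and 10.8 CPM. This endothelial rise was that of Kdr, from a mean of 1.91 to 7.62 CPM in WT, while Tek was at 0.546 and 0.276 CPM and Pecam1 at 0.177 and 0.109 CPM. The 9 stem and progenitor markers summed to between 7410 and 9070 CPM over all 10 libraries, but single genes moved in opposite directions. In WT the mean of Vim, the most abundant, was 2657 CPM in PRO and 1759 CPM in DIFF, and that of Nes 1732 and 194.9 CPM. Slc1a3 went the other way, from between 603.5 and 831 CPM in the PRO libraries to between 1884 and 2567 CPM in the DIFF libraries. Fabp7 stood above Vim in every DIFF library, although its own stage change did not pass the test in WT. Slc1a3 and Fabp7 were singled out after their values were seen. The sums of 8 oligodendroglial markers, between 76.1 and 176 CPM, and of 6 mature neuron markers, between 17.0 and 37.6 CPM, overlapped between the stages. The 7 microglial markers stayed at or under 0.622 CPM and the 4 neural crest markers at or under 3.36 CPM. The part of a shift in cell types in the Sox changes was not tested.

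The genes whose pattern over the 10 libraries was nearest to that of Sox2 were Ypel5, Jmy, Spire1, Narf and Foxo4, among the 9749 genes that averaged 10 CPM or more. Their root-mean-square difference from Sox2 in centred log2 CPM was 0.0586, 0.0663, 0.0675, 0.0769 and 0.0809. The nearest gene to Sox5 was Foxo4 as well (0.0697), and Sox2 and Sox5 were themselves 0.113 apart, the closest pair among the 10 members. Sox2ot and Sox4 came next, at 0.161, and Sox2 and Sox21 were 0.223 apart. The nearest genes to the others were Glb1l for Sox2ot, Nup50 for Sox3, Sipa1l1 for Sox4, Dcun1d4 for Sox6, Pigs for Sox8, Klhdc10 for Sox9, Tmem209 for Sox11 and Kif1b for Sox21.

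Promoter sequence is shown for the pair that parted, Sox4 and Sox11, and for Sox2 and Sox21, which rose together. Of the 10 members, 7 had an entry in the RefSeq promoter table, which holds none for Sox2ot, Sox3 and Sox9. The sequences are the 250 bases before the RefSeq start in build GRCm38.p6, read 5′ to 3′ along the gene, with the CCAAT box in capitals (CCAAT, or ATTGG where it lies on the other strand). Sox2 is at chr3:34649745-34649994 on the plus strand, inside the intron of Sox2ot, and the others are on the minus strand, Sox4 at chr13:28953700-28953949, Sox11 at chr12:27342719-27342968 and Sox21 at chr14:118237031-118237280.
Sox2: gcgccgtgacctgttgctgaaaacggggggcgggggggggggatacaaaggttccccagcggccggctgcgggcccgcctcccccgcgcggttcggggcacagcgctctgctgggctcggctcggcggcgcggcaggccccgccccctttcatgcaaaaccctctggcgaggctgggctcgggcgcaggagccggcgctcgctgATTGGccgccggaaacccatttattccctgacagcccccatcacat
Sox21: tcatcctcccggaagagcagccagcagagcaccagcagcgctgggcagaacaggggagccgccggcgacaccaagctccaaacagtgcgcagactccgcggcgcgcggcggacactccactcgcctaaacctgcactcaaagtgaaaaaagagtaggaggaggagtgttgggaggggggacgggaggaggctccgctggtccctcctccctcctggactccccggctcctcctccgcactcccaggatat
Sox4: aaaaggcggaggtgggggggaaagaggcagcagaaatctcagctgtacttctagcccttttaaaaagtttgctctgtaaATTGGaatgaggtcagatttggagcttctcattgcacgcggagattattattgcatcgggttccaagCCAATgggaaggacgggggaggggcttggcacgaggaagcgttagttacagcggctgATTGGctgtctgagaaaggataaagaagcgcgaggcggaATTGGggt
Sox11: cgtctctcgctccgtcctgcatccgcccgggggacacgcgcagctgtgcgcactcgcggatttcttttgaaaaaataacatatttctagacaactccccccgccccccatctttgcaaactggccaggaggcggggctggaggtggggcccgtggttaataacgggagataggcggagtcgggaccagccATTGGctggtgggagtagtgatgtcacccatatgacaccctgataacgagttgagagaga

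Sox4 held 4 CCAAT boxes, Sox2 and Sox11 held 1 each, and Sox21 held 0. Over the 32851 promoters of the table, 33.8% had at least 1 CCAAT box in the same window. The SOX core written as ACAAAG or ACAATG, searched on both strands, was found once before Sox2 and not before Sox4, Sox11 or Sox21, against 25.2% of all promoters. The GC box GGGCGG was found in 2 places before Sox2 and before Sox11, against 32.7% of all promoters with at least 1. The TATA box TATAAA, present in 12.4%, was in none of the 4. Of their 250 bases, 72.0% were G or C before Sox2, 65.2% before Sox21, 58.0% before Sox11 and 50.8% before Sox4.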

How the data were processed

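The deposited values are expected counts per gene for 10 polyA RNA libraries, which the authors made with STAR and RSEM on GRCm38 after trimming with Trimmomatic and cutadapt, according to the submitters' processing notes. Versions and the strand setting are not given in the sources used here. Expected counts were rounded to whole numbers, and a gene was dropped where 4 or more of the 10 libraries held under 1 CPM of it. The rest were scaled by TMM and fitted as 4 groups with edgeR 4.0.16 (glmQLFit robust, glmQLFTest, R 4.3.3), two-sided, with Benjamini-Hochberg adjustment over all 12859 genes and a threshold of 0.05. SE and 95% intervals come from the same fit. DESeq2 1.42.0, other filters and scalings, fits of the compared groups alone, replicate blocks and each library left out were alternatives. The code was tested on simulated data. Gene positions, exon lengths and overlaps are from GENCODE M21 (GRCm38), which matched 48435 of the 48795 gene identifiers, and figures and sums were made with Python 3.11.15.

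The members and gene lists were chosen with earlier results of these data known. Named genes were all members, the other Sox genes past the filter, genes that the study relates to Sox2 (Cdkn1b, Olig2, Egfr, Nr2e1, Neurod1, Mki67, Dcx), up to 3 rises and 3 falls of each list in WT, list genes that passed in a genotype comparison, and the nearest genes by the root-mean-square difference of log2(CPM + 0.5) centred on the gene mean. Some genes that this rule names are not reported here. Replicates are labelled as biological. Same-numbered WT libraries of the 2 stages deviated together (r = 0.248, 0.300 and 0.395 across genes, against -0.222 to -0.0874 for other pairs), so the WT numbers pair the libraries. No pair of replicates agreed within sampling noise (chi-square per gene between 14.8 and 64.5).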

Additional observations from a re-analysis of the deposited data

Results flagged for a closer look

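None of the 12 Sox genes tested nor Sox2ot passed the test of a difference between the genotypes in its stage change. This does not show equal changes, since the 95% intervals were wide, for example -0.90 to 0.46 for Sox1 and -0.77 to 0.18 for Sox13 on the log2 scale. Groups of 2 or 3 libraries are too small for a search for outlying samples. Among the other genes named, the fall of Mki67 differed between the genotypes, by 1.65 on the log2 scale (SE 0.27), being smaller in the libraries labelled p27KO (adjusted p = 0.039 in edgeR's quasi-likelihood test after Benjamini-Hochberg adjustment). This call was lost with a replicate block within genotype and without several single libraries, where the adjusted p ran from 0.058 to 0.23 in the same test. The difference itself was between 1.53 and 1.75 in these fits, and those without a p27KO library leave 1 in its group.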

How the results depend on the processing

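The stage calls of the 10 members held in WT under all 18 alternatives, and in the libraries labelled p27KO under all but 3, each of which ended the call of Sox6 (no filter, adjusted p = 0.068 in edgeR's quasi-likelihood test after Benjamini-Hochberg adjustment, and the replicates given above). Across alternatives the log2 fold change of Sox2 was between 0.72 and 0.91 in WT and between 0.87 and 1.00 in the libraries labelled p27KO. Without a filter the median of all genes shifted by -0.081 in WT. Of the named changes that did not pass the test, 5 turned sign with a library left out. Sox9 in the libraries labelled p27KO ran from -0.077 to 0.23, Sox12 there from -0.33 to 0.24, Sox13 in WT from -0.089 to 0.097, Egfr in WT from -0.12 to 0.18, and Cdkn1b between genotypes in PRO from -0.18 to 0.10. Sox9 in WT, also not called, was below 0 in all 18 alternatives (-0.20 to -0.011). Egfr was also -0.006 with the other reading of the filter (kept where 4 libraries or more reach 1 CPM) and -0.049 with no filter. The cause was not tested.

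The count of members called between genotypes in DIFF was 1 with DESeq2. Counts over all genes depended more on the setting. For the interaction, genes higher numbered 153 with DESeq2, 78 with no filter, 29 with the replicate block within genotype and 0 to 88 with a library left out, and genes lower 4, 1, 0 and 0 to 2. In DIFF, genes higher with the p27KO label numbered 246 and genes lower 16. Genes higher numbered 519 with DESeq2, 36 with only the compared groups fitted and 94 to 248 with a library left out. Genes lower numbered 112 with DESeq2, 31 with no filter, 3 with only the compared groups, 38 with the replicate block and 5 to 34 with a library left out. In PRO, genes higher numbered 20 with DESeq2, 4 with the other reading of the filter, 7 with no filter, 1 with only the compared groups, 1 with the replicate block and 1 to 3 with a library left out, and genes lower 20, 5 and 7 with the first 3 of these and 0 to 3 with a library left out. The replicate block changed no call of a member. The p27KO numbers correlated at -0.138, so their crossed pairing was added after seeing the data, with 66 genes for the interaction and 3771 higher and 4010 lower for the p27KO stage change. With the longest transcript as length, Sox2ot was 5th of 13 Sox genes per kb in WT DIFF, against 10th.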

Other observations

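The proneural gene Neurog2, below the filter, had 143 counts in replicate 2 of WT DIFF and at most 5 counts in any other library. It was singled out after its values were seen.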
